A study of Mus musculus with 13 samples.

Results

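The dystrophin-glycoprotein complex was followed through 8 of its genes, Dmd, Utrn, Dag1, Sgca, Sgcb, Sgcd, Sspn and Dtna, chosen by name out of 17924 genes measured in skeletal muscle of mdm mice. The mice carry the mdm (muscular dystrophy with myositis) allele of titin, a rearrangement at the junction of the N2A and PEVK regions, and came from a colony founded with heterozygous B6C3Fe a/a-Ttn mdm/J animals. Total RNA was sequenced from whole muscles: 5 libraries of extensor digitorum longus (EDL), 5 of psoas and 3 of soleus, from animals aged 38 to 42 days, 29 to 42 days and 33 to 38 days. All 13 libraries carry the genotype label mdm, no treatment is named, sex was not recorded for every library, and wild-type muscle was not analysed here, so each comparison below is between muscles of the same mutant. The labels do not say which libraries came from the same animal, and the p-values measure the spread between these libraries.

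The complex spans the muscle fibre membrane. Dystrophin binds cortical actin inside the fibre and beta-dystroglycan in the membrane, beta-dystroglycan holds alpha-dystroglycan outside, and alpha-dystroglycan carries the sugar chain to which laminin binds. The sarcoglycans and sarcospan brace dystroglycan within the membrane, while dystrobrevin and the syntrophins gather signalling proteins such as neuronal nitric oxide synthase beneath it, and loss of dystrophin or of a sarcoglycan causes muscular dystrophy. Utrophin is the close relative of dystrophin that is concentrated at neuromuscular and myotendinous junctions in adult muscle and spread along the membrane in immature fibres.

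Library totals ran from 12059090 to 48835209 counts in EDL, from 16315975 to 30009501 in psoas and from 9114176 to 39484945 in soleus, and each of the 8 genes had at least 182 counts in its lowest library. All 8 were among the 17069 genes tested, a set limited to genes whose normalized count reached 10 in no fewer than 3 libraries. A gene is said to have passed the limits when its adjusted p was under 0.01 and its log2 fold change was over 1 in either direction. Fast-fibre markers were highest in EDL and slow-fibre markers in soleus, while psoas, a fast muscle by its usual description, lay below EDL in the former and below soleus in the latter. The summed normalized count of 6 fast-fibre genes ran from 598652 to 1460152 in EDL, from 89401 to 238641 in psoas and from 43032 to 73974 in soleus, and that of 7 slow-fibre genes from 10676 to 53079, from 14822 to 63163 and from 313789 to 385412.

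Sgca and Dag1, which encode 2 subunits that sit side by side in the membrane, differed between psoas and EDL in opposite directions, with log2 fold changes in psoas of -1.47 ± 0.25 (SE, n = 5 and 5) for Sgca and 1.13 ± 0.23 for Dag1. Utrn was higher than in EDL at an adjusted p under 0.05 in psoas (1.09 ± 0.26, 0.0122) and in soleus (1.17 ± 0.29, 0.0419) and passed the limits in neither, while Dmd was not shown to differ between any pair of muscles. Sgcb, Sgcd and Dtna were lower in psoas than in EDL, with log2 fold changes of -0.65 to -0.83 that passed an adjusted p of 0.05 but neither limit, and all 3 missed 0.05 without EDL replicate 3, psoas replicate 1 or psoas replicate 2. In whole-muscle RNA, fewer cells of a type and less RNA per cell cannot be told apart.

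**Figure D1:**
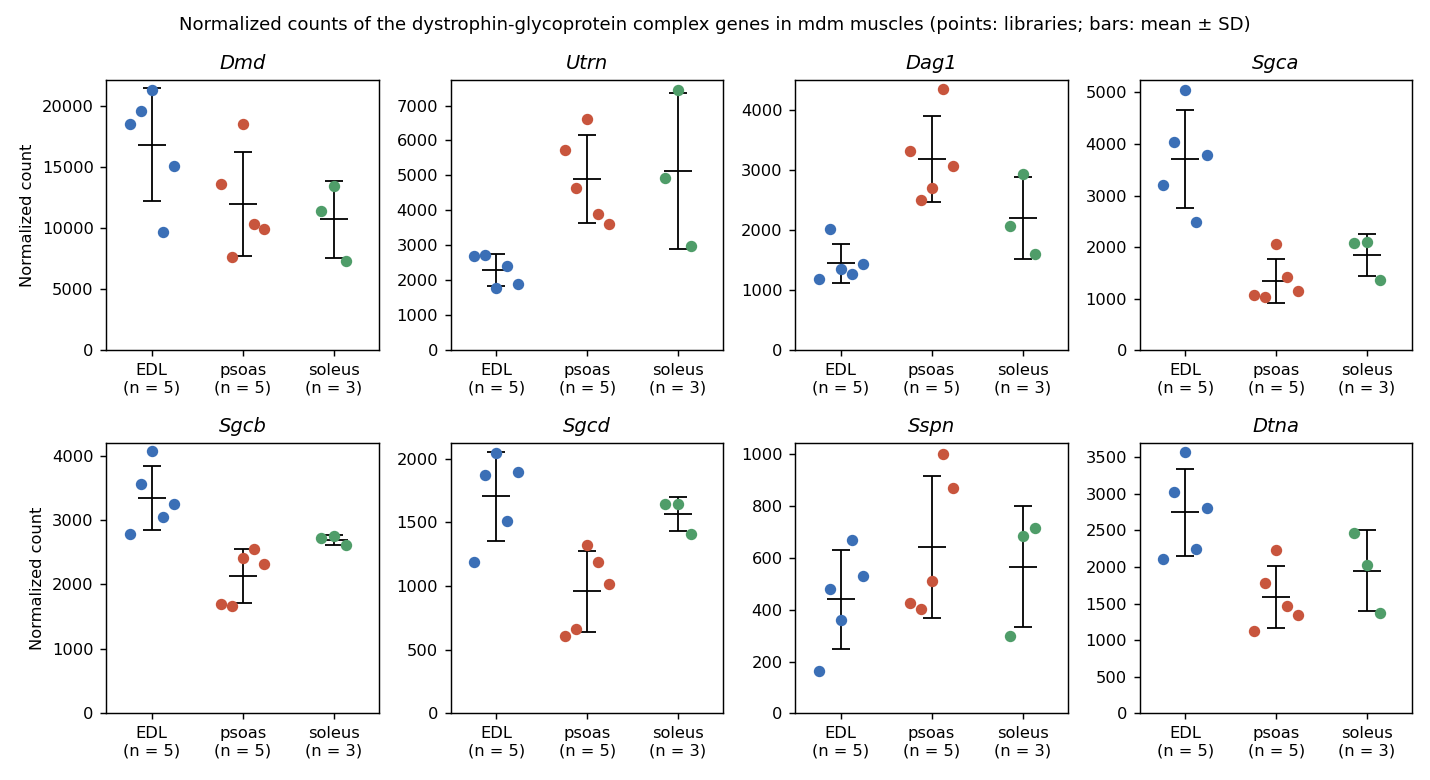
Normalized counts (y axis, linear from 0) of the 8 genes in each mdm library (points) by muscle (x axis), with the mean and SD of each muscle as bars. The 5 EDL libraries lie above all psoas libraries for Sgca and Sgcb and below them for Utrn and Dag1, and the muscles overlap for Dmd and Sspn.

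Levels per length were compared first, as the normalized count (the count divided by the library's size factor) per kb of annotated exon. Sgca had the highest level of the 8 in each muscle, at 2138 ± 550 per kb (SD, n = 5) in EDL, 775 ± 247 (n = 5) in psoas and 1064 ± 239 (n = 3) in soleus. It was followed in all 3 muscles by Sgcb, Dmd and Dag1. Dmd, whose exons add up to 23801 bases, stood at 708 ± 193 per kb in EDL, 504 ± 178 in psoas and 450 ± 133 in soleus. The first 4 places were therefore the same everywhere, but only some steps were wider than the spread. In EDL the ranges of Sgcb and Dmd overlapped and those of Dmd and Dag1 did not. In psoas the ranges of Sgca, Sgcb, Dmd and Dag1 each overlapped that of the next, and Dag1 was above Dmd in 3 of 5 libraries, Dmd above Dag1 in 2. In soleus the level of Sgcb lay above that of Dmd in 3 of 3 libraries, with no overlap.

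The lower 4 places changed between muscles. Utrn held the seventh place of 8 in EDL, at 134 ± 26.2 per kb, below Sgcd and Dtna. It took the fifth place in psoas, at 286 ± 73.9 per kb, and the fifth in soleus, at 299 ± 131 per kb. In psoas the range of Utrn overlapped neither that of Dag1 above it nor that of Sspn below it, whereas in EDL its range overlapped that of Dtna, which was higher in 3 of 5 libraries. Sspn held the lowest place in EDL and soleus, at 88.2 ± 38.2 and 113 ± 46.6 per kb, and Dtna in psoas, at 93.9 ± 25.4 per kb. In soleus the last step was within the spread, since Dtna was above Sspn in 1 of 3 libraries and their ranges overlapped. Exon lengths are the union of all annotated isoforms, so genes with many isoforms, Dmd and Dtna among them, are placed lower by this scale than they would be by 1 transcript.

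Across the 13 libraries Sgcb varied least, with a coefficient of variation of 24.6% and a highest library 2.44 times the lowest. Sgca had the largest coefficient of variation, 54.2%, and Sspn the widest range, 6.17 times. The test over the 3 muscles at once, edgeR's quasi-likelihood F test with Benjamini-Hochberg adjustment, asked whether any muscle differed. At an adjusted p under 0.01 it called 1 of the 8 genes, Sgca (adjusted p = 0.00501), against 4.22% of all genes tested. Dag1 (0.0139) and Utrn (0.0198) brought the count to 3 of 8 at 0.05, against 13.5% of all genes. The adjusted p of the other 5 genes ran from 0.0596 for Sgcd to 0.564 for Sspn. Sgca kept its call in this test in fewer than all of the fits that leave out 1 library: it was lost without EDL replicate 2, 3 or 5 and without psoas replicate 1, 2, 4 or 5, and Utrn joined it without soleus replicate 3.

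Between psoas and EDL, 2 of the 8 genes passed the limits, Sgca below and Dag1 above EDL, where 4.93% of all genes tested did (2.43% higher in psoas and 2.5% lower). At an adjusted p under 0.05 with no limit on the fold, 2 genes were higher (Utrn and Dag1) and 4 lower (Sgca, Sgcb, Sgcd and Dtna), 6 of 8 in all. The same rule called 18.1% of all genes, 9.06% higher and 9.06% lower. When single libraries were left out the 6 became as few as 3: Utrn, Dag1 and Sgca stayed under 0.05 in all 13 fits, Sgcb in 10, Sgcd in 8 and Dtna in 6. Only those first 3 were under 0.05 without EDL replicate 3, psoas replicate 1 or psoas replicate 2, where the adjusted p of the others reached 0.0652 for Sgcb, 0.0703 for Sgcd and 0.0862 for Dtna. The libraries of the 2 muscles did not overlap for 4 of 8 genes, Utrn, Dag1, Sgca and Sgcb, against 13% of all genes. The median log2 fold change was -0.57 over the 8 genes and 0.02 over all genes tested.

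Same-numbered EDL and psoas libraries varied together over all genes. Those numbered 2 to 5 came from animals of the same age, whereas those numbered 1 came from animals of 38 and 29 days and so not from 1 animal. The fit that keeps these pairs as a block, on the 10 EDL and psoas libraries alone, added Utrn to the call, at 1.08 ± 0.22 on the log2 scale with an adjusted p of 0.00822. That made 3 of 8 genes, while the count over all genes went from 841 to 1267. The labels also give each library a code, T1 or T3 to T6, without saying what it stands for. EDL and psoas share T4 (1 library each, with 2 of soleus), T5 (1 each) and T6 (2 each, with 1 of soleus), and the EDL and psoas libraries numbered 1 have codes of their own, T1 and T3. Without these last 2 libraries, an alternative chosen after seeing the data, no member passed the limits: Sgca was at -1.45 ± 0.28 with an adjusted p of 0.0103 and Dag1 at 1.05 ± 0.26 with 0.022, while the count over all genes fell to 343. The values at an unadjusted p under 0.05 in the full fit were 6 of 8 genes and 5679 of all genes tested. For Utrn, Dag1, Sgca and Sgcb the EDL and psoas libraries did not overlap. Pairs and codes can therefore only repeat their direction, and the sizes alone are given below.

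**Figure D2:**
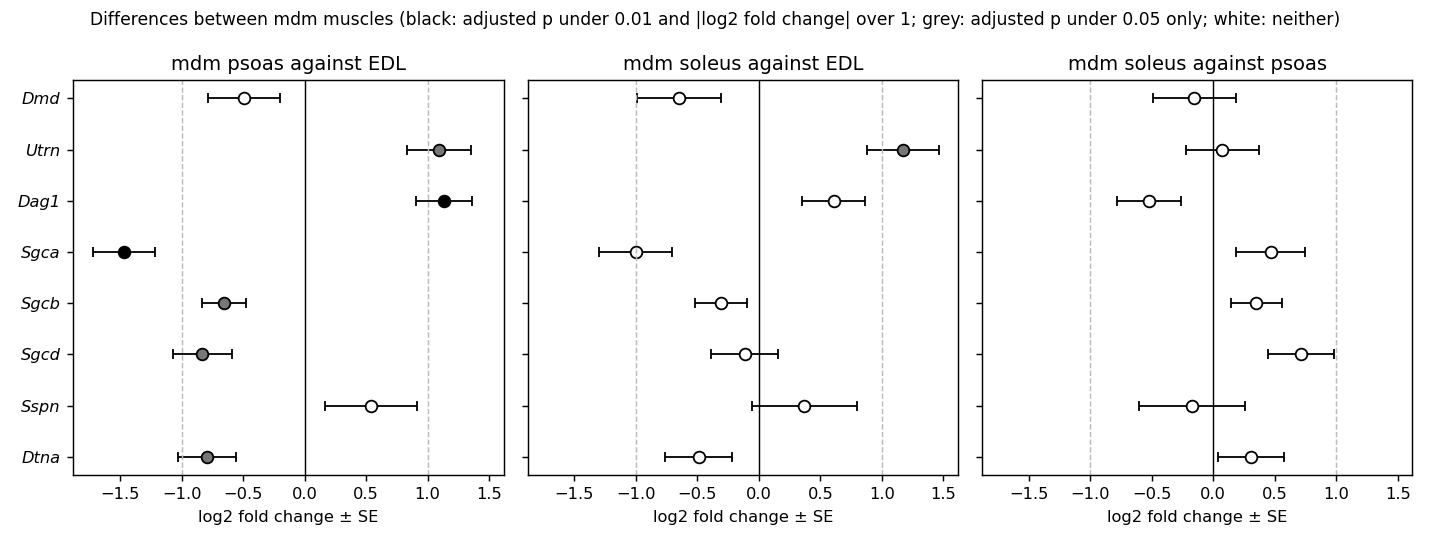
Log2 fold changes (x axis) of the 8 genes (y axis) between mdm muscles, with bars of 1 SE from the edgeR fit, black where adjusted p was under 0.01 and the change over 1 (dashed lines), grey at an adjusted p under 0.05 only, and white otherwise. Sgca and Dag1 are the 2 black points, at -1.47 and 1.13, and Utrn is grey against EDL in both psoas and soleus.

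Dystrophin is the actin-binding backbone of the complex. Dmd (ENSMUSG00000045103) spans chrX:82948870-85206141 on the plus strand of GRCm38. Its normalized count was 18499, 19615, 21348, 9717 and 15047 in EDL replicates 1 to 5, 13620.3, 7598, 18541, 10303 and 9882 in psoas replicates 1 to 5, and 11363, 13481 and 7276 in soleus replicates 1 to 3. EDL replicate 4 lay among the psoas libraries and psoas replicate 3 among the EDL libraries, so the muscles overlapped throughout. The log2 fold change was -0.49 ± 0.29 for psoas against EDL (adjusted p = 0.253), -0.65 ± 0.34 for soleus against EDL (0.404) and -0.16 ± 0.34 for soleus against psoas (0.868). Psoas was lower than the same-numbered EDL library in 4 of 5 pairs, with differences of -1.40 to 0.11.

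Utrophin stands in for dystrophin at the same binding sites. Utrn (ENSMUSG00000019820) lies at chr10:12382188-12869365 on the minus strand. It had normalized counts of 2691, 2716.5, 1766, 2418 and 1881 in EDL, 5723, 4625, 6619.5, 3899 and 3603 in psoas, and 4929.7, 7454 and 2981 in soleus. Every psoas and soleus library lay above every EDL library, and soleus replicate 3 was the closest to them. Utrn was 2.13-fold higher in psoas than in EDL (log2 1.09 ± 0.26, adjusted p = 0.0122), with differences of 0.71 to 1.90 over the 5 same-numbered pairs. It was 2.25-fold higher in soleus than in EDL (log2 1.17 ± 0.29, adjusted p = 0.0419), and between soleus and psoas the difference was 0.07 ± 0.30 (adjusted p = 0.934). Both comparisons with EDL use the same EDL libraries.

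Within codes the difference between psoas and EDL in Utrn was 0.74 in T4, 1.90 in T5 and 0.82 in T6, and that between soleus and EDL was 1.14 in T4 and 0.50 in T6. Leaving out soleus replicate 2 or 3 brought Utrn past the limits between psoas and EDL, at adjusted p-values of 0.00937 and 0.00754. The difference between soleus and EDL was the less firm: its adjusted p was 0.119 with the replicate block, 0.0875 when codes were blocked and 0.0541 in limma, and it missed 0.05 in 8 of the 13 fits that leave out 1 library. These were the fits without any 1 of the EDL libraries, psoas replicate 2 or soleus replicate 1 or 2. The log2 fold change ran from 0.80 without soleus replicate 2 (adjusted p = 0.286) to 1.45 without soleus replicate 3 (0.0223).

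The ratio of Utrn to Dmd per kb, taken within each library, sets the relatives side by side. It was 0.202, 0.193, 0.115, 0.346 and 0.174 in EDL, 0.585, 0.847, 0.497, 0.526 and 0.507 in psoas, and 0.604, 0.769 and 0.57 in soleus. No EDL library reached the lowest psoas or soleus ratio, and the highest EDL ratio belonged to replicate 4, the EDL library with the lowest Dmd count. The means were 0.206 ± 0.0853 (SD, n = 5), 0.592 ± 0.146 (n = 5) and 0.648 ± 0.107 (n = 3). Dmd was above Utrn per kb in all 13 libraries.

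Values at neuromuscular junctions and in immature fibres stand beside those of Utrn. The summed normalized count of 6 neuromuscular junction genes was 996 to 2220.2 in EDL, 1641 to 3259 in psoas and 1159 to 3131 in soleus, overlapping in each pair. Of these, Chrng, the fetal subunit of the acetylcholine receptor, was higher in psoas than in EDL by 1.32 ± 0.30 (adjusted p = 0.00943) and Chrne, the adult subunit that replaces it, lower, at -2.35 ± 0.45 (0.00452). The sum of 5 genes of immature or regenerating fibres was 35290 to 67613 in EDL and 65684 to 144209 in psoas. In soleus it was 59251 to 179576. Between psoas and EDL, 1 of the 5 passed the limits, beside 4.93% of all genes. It was Myod1, a muscle-determining transcription factor (1.58 ± 0.23, 0.00137). At an adjusted p under 0.05, 3 of the 5 were higher in psoas and 0 lower, beside 9.06% and 9.06% of all genes. The median over the 5 was 0.95, beside 0.02 over all genes. In soleus the list was split: against EDL, Myh3, the embryonic myosin heavy chain, stood at 2.29 ± 0.49 (0.0199) and Myh8, the perinatal one, was lower past the limits, at -1.85 ± 0.29 (0.00446), while Myod1 stood at -0.22 ± 0.27 (0.772) and Myog at -0.16 ± 0.32 (0.878). The part of these cells and fibres in the Utrn values was not tested.

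Dag1 (ENSMUSG00000039952) encodes the precursor that is cut into alpha- and beta-dystroglycan, the core of the complex. It lies at chr9:108204634-108263958 on the minus strand. Its normalized counts were 1186, 2013, 1348, 1274 and 1435 in EDL, 3322, 2513, 2696.5, 4350.5 and 3065 in psoas, and 2068, 2943 and 1604 in soleus. Psoas libraries all lay above EDL libraries, EDL replicate 2 and psoas replicate 2 came closest, and soleus lay between and overlapped both. Dag1 was 2.19-fold higher in psoas than in EDL (log2 1.13 ± 0.23, adjusted p = 0.00577), with differences of 0.29 to 1.80 over the 5 pairs.

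The Dag1 call was the less firm of the pair. It was lost in 6 of the 13 fits that leave out 1 library, those without EDL replicate 1, 3, 4 or 5 or psoas replicate 1 or 4, where the adjusted p rose to at most 0.0182 and the log2 fold change stayed between 1.01 and 1.29 in all 13. With the label code as a block it stood at 1.08 ± 0.25 (adjusted p = 0.0109). Within single codes the log2 difference between psoas and EDL means was 0.29 in T4, 0.99 in T5 and 1.44 in T6. In soleus the difference from EDL was 0.61 ± 0.26 (adjusted p = 0.265) and from psoas -0.52 ± 0.26 (0.433).

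Alpha-sarcoglycan, encoded by Sgca (ENSMUSG00000001508, chr11:94962791-94976327, minus strand), is the sarcoglycan made almost only by striated muscle. Its normalized counts were 3212.5, 4036, 5041, 2479.9 and 3782 in EDL, 1066, 1027, 2059, 1419 and 1149 in psoas, and 2083, 2088 and 1369 in soleus. The lowest EDL library, replicate 4, was above the highest psoas library, replicate 3, and above all soleus libraries. Sgca was 2.77-fold lower in psoas than in EDL (log2 -1.47 ± 0.25, adjusted p = 0.00281), with differences of -0.78 to -2.0 over the 5 pairs. It was called in all 13 fits that leave out 1 library, with adjusted p between 0.00224 and 0.00888, and within codes the differences were -2.0 in T4, -1.30 in T5 and -1.25 in T6.

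Soleus held less Sgca than EDL as well, at a log2 fold change of -1.0 ± 0.30 with no overlap, but the adjusted p was 0.0855. Soleus against psoas gave 0.47 ± 0.28 (adjusted p = 0.515). Against EDL, the fast-fibre markers moved in the same direction as Sgca. Myh4, Mybpc2, Tnnt3 and Tnni2, 4 of the 6, were lower in psoas and in soleus past the limits. In psoas their log2 fold changes ran from -4.18 for Myh4 to -1.67 for Tnni2. Between soleus and psoas the median over the 6 was -1.55, with 0 past the limits. Sgca was not shown to differ between these muscles (0.47 ± 0.28, adjusted p = 0.515). The part of the fast-fibre content in the Sgca difference was not tested.

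Sgcb (ENSMUSG00000029156, chr5:73632749-73647790, minus strand) and Sgcd (ENSMUSG00000020354, chr11:46896253-47988969, minus strand) encode beta- and delta-sarcoglycan, the pair that forms the core onto which the other sarcoglycans assemble. Sgcb had normalized counts of 2780.4, 3564, 4073, 3041 and 3251 in EDL, 1694, 1668, 2412, 2553 and 2310.1 in psoas, and 2722, 2757 and 2606.5 in soleus. EDL, soleus and psoas followed each other in that order without overlap, and the coefficient of variation among the soleus libraries was 2.91%. Psoas was below EDL, at a log2 fold change of -0.65 ± 0.18 (adjusted p = 0.024). The differences of soleus from EDL, -0.31 ± 0.21 (0.557), and from psoas, 0.35 ± 0.21 (0.504), did not pass.

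Sgcd had normalized counts of 1192, 1874, 2047, 1511 and 1893.5 in EDL, 609.8, 659.5, 1323.5, 1192 and 1015 in psoas, and 1647, 1643 and 1408 in soleus. Psoas replicates 1 and 2 were the lowest of all libraries, psoas overlapped EDL only through EDL replicate 1, and soleus lay inside the EDL range and above psoas. The log2 fold change was -0.83 ± 0.24 for psoas against EDL (adjusted p = 0.0269), -0.12 ± 0.27 for soleus against EDL (0.896) and 0.71 ± 0.27 for soleus against psoas (0.287). Over the 5 pairs the differences were -0.23 to -1.13 for Sgcb, and for Sgcd psoas was lower in 5 of 5, with differences of -0.32 to -1.54. Within codes T4, T5 and T6 the difference was -1.13, -0.77 and -0.36 for Sgcb and -1.54, -0.64 and -0.61 for Sgcd.

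Ratios within a library show how evenly the sarcoglycans moved. The ratio of Sgcd to Sgcb per kb was 0.249 ± 0.0272 (SD, n = 5) in EDL, 0.217 ± 0.0355 (n = 5) in psoas and 0.285 ± 0.0172 (n = 3) in soleus, with EDL overlapping both others. The ratio of Sgca to Sgcb was 2.57 ± 0.384 in EDL, 1.47 ± 0.316 in psoas and 1.59 ± 0.319 in soleus, and only EDL replicate 4, at 1.91, fell below the highest psoas ratio of 1.99.

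Sgca was lower and Dag1 higher in psoas than in EDL, so the gap between these muscles in the ratio of Sgca to Dag1 restates those differences. The ratio of Sgca to Dag1 per kb was 9.92, 7.35, 13.7, 7.13 and 9.65 in EDL, 1.176, 1.498, 2.80, 1.20 and 1.37 in psoas, and 3.69, 2.60 and 3.13 in soleus. Every EDL library lay above every soleus library, and soleus replicate 2 fell below psoas replicate 3, the highest in psoas. The ratio of Dag1 to Dmd ran from 0.236 to 0.491 in EDL, from 0.544 to 1.58 in psoas and from 0.681 to 0.825 in soleus, with EDL below both others in each library.

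**Figure D3:**
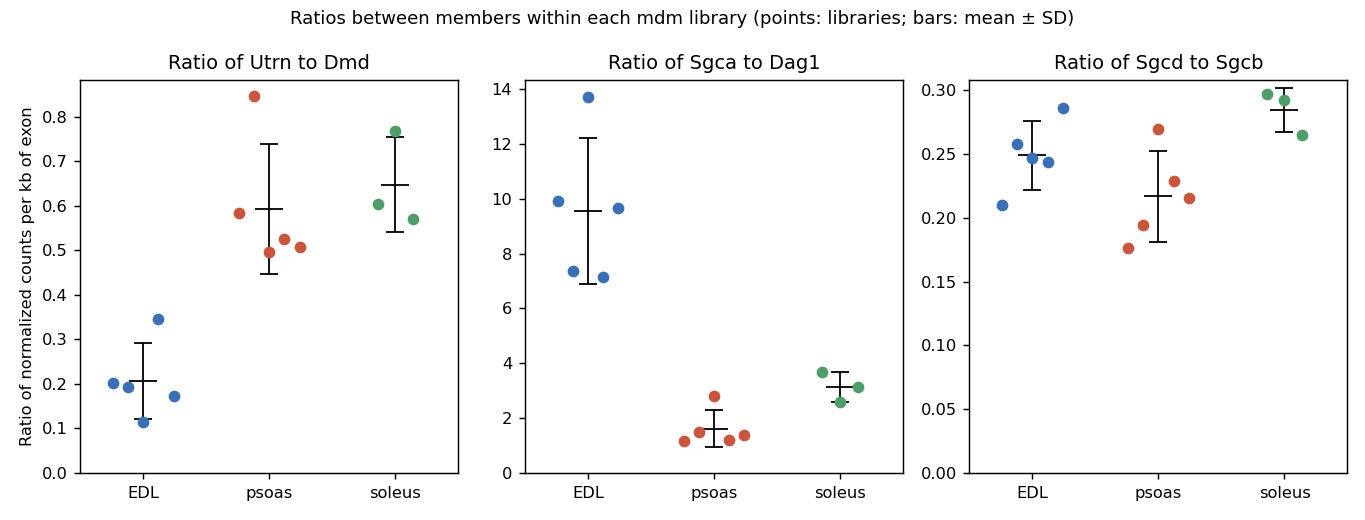
Ratios of normalized counts per kb of exon (y axis, linear from 0) within each mdm library (points), with the mean and SD of each muscle (bars). EDL stands apart from psoas and soleus for Utrn to Dmd (0.206 against 0.592 and 0.648) and for Sgca to Dag1 (9.55 against 1.61 and 3.14), and the 3 muscles lie close together for Sgcd to Sgcb. Sgca and Dag1 passed the limits in opposite directions between psoas and EDL, so their ratio restates those differences.

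Sarcospan, the small membrane protein that binds the sarcoglycans, is encoded by Sspn (ENSMUSG00000030255, chr6:145931641-145965223, plus strand). Its normalized counts were 162, 480.4, 362, 669.8 and 529 in EDL, 426, 402, 511, 1001 and 869 in psoas, and 298, 686 and 715 in soleus. The lowest and the highest value, EDL replicate 1 and psoas replicate 4, were far apart, but the muscles overlapped in each pair. The log2 fold change was 0.54 ± 0.37 for psoas against EDL (adjusted p = 0.331), 0.37 ± 0.43 for soleus against EDL (0.761) and -0.17 ± 0.43 for soleus against psoas (0.886), and psoas was higher in 4 of 5 pairs. An antisense gene, Sspnos, covers 1.38% of the Sspn exons and is not among the genes in the files, and whether the counts used strand is not given in the sources used here.

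Dtna (ENSMUSG00000024302, chr18:23415135-23659715, plus strand) encodes alpha-dystrobrevin, a relative of dystrophin that carries the syntrophins and serves at the neuromuscular junction as well as along the fibre. Its normalized counts were 2106, 3018, 3569.6, 2247 and 2806.5 in EDL, 1130.1, 1777, 2233, 1461 and 1344.5 in psoas, and 2458, 2029 and 1365 in soleus. Psoas replicate 3 alone reached into the EDL range, and soleus spread over both. Dtna was lower in psoas than in EDL at a log2 fold change of -0.79 ± 0.24 (adjusted p = 0.0317), in 5 of 5 pairs with differences of -0.60 to -1.06, and with the EDL and psoas pairs as a block its adjusted p was 0.00768 at a change of -0.79, short of the fold limit. Soleus against EDL was -0.49 ± 0.27 (0.44) and soleus against psoas 0.30 ± 0.27 (0.647). Within codes the difference between psoas and EDL was -0.80 in T4, -0.69 in T5 and -0.83 in T6.

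The comparisons of soleus with the other muscles rest on 3 soleus libraries. By edgeR 0 of the 8 passed the limits between soleus and EDL, where 0.978% of all genes did, 3 had an unadjusted p under 0.05 (Utrn, Dag1 and Sgca) and 2584 of all genes tested did. Utrn was the 1 gene at an adjusted p under 0.05, against 3.43% of all genes. DESeq2 called 1 of 8, Utrn, and limma 0. The libraries of soleus and EDL did not overlap for 3 genes, Utrn, Sgca and Sgcb, against 11% of all genes. The median log2 fold change was -0.21 over the 8 genes and -0.03 over all genes.

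Between soleus and psoas edgeR, DESeq2 and limma each called 0 of 8, and edgeR called 0.0762% of all genes. At an adjusted p under 0.05, edgeR called 0 of 8 and 0.633% of all genes. Sgcd was the 1 gene with an unadjusted p under 0.05 (0.018), and 2163 of all genes tested had one. Sgcb and Sgcd, 2 of 8, did not overlap between the muscles, against 10.2% of all genes. The standard errors in this comparison, with 3 soleus libraries, were 0.21 to 0.43 on the log2 scale. Differences larger than these were missed as well: Sgcd, at 0.71 ± 0.27, had an adjusted p of 0.287 by edgeR.

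The rest of the pathway was read from the same fit. Of 9 other subunits and partners, 7 were tested, and between psoas and EDL 1 was higher and 1 was lower past the limits, as were 2.43% and 2.5% of all genes. Sntb1, which encodes beta1-syntrophin, was higher by 1.27 ± 0.18 (adjusted p = 0.00122), at a normalized count of 455 ± 93.6 (SD, n = 5) in psoas and 188 ± 31.7 in EDL. Nos1, the neuronal nitric oxide synthase that the complex holds at the membrane, was lower, at -2.22 ± 0.51 (adjusted p = 0.00992), at 32.9 ± 17.0 and 151 ± 101. In soleus Nos1 was lower than in EDL, at -2.86 ± 0.65 (adjusted p = 0.0254), at 21.6 ± 13.8, and Sntb1 stood at 0.66 ± 0.20 (0.105). The median over the 7 genes was 0.32 between psoas and EDL, beside 0.02 over all genes. Sntg2, a syntrophin of low count, stood at -0.88 ± 0.75 between soleus and psoas (0.63).

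Alpha-dystroglycan binds laminin through a sugar chain built by a series of enzymes, and 16 of 17 genes for these enzymes were tested. Between psoas and EDL 1 passed the limits, B3galnt2, which adds N-acetylgalactosamine to the core of the chain, at -1.176 ± 0.25 (adjusted p = 0.00826), where 4.93% of all genes passed. At an adjusted p under 0.05 there were 3 lower, B3galnt2, Pomgnt2 (-0.75 ± 0.21, 0.0266) and Rxylt1 (-0.61 ± 0.20, 0.0488), and 0 higher, a share of the 16 close to the 18.1% of all genes under 0.05 in either direction. The median over the 16 was -0.28, beside 0.02 over all genes. In soleus 0 of 16 passed the limits by edgeR or DESeq2 against either muscle, with 2 at an unadjusted p under 0.05 against EDL and 3 against psoas. The largest differences there were those of Dpm1, a subunit of the synthase that makes the mannose donor, at -1.34 ± 0.44 against EDL (adjusted p = 0.125) and -1.09 ± 0.43 against psoas (0.32), Pomgnt1 at 0.92 ± 0.29 against psoas (0.209) and B3galnt2 at -0.77 ± 0.30 against EDL (0.21).

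Of 10 ligands outside the fibre, 9 were tested. Hspg2, which encodes perlecan, was higher in psoas than in EDL by 1.52 ± 0.26 (adjusted p = 0.0024), and Agrn, which encodes agrin, the organizer of the neuromuscular junction, by 1.08 ± 0.24 (0.00862). At an adjusted p under 0.05, 4 were higher, adding Bgn (biglycan) at 1.20 ± 0.35 (0.0285) and Lamc1 (laminin gamma1) at 0.74 ± 0.22 (0.0346), and 1 lower, Lamb2 (laminin beta2) at -0.67 ± 0.19 (0.0241). Over all genes 4.93% passed the limits and 18.1% were under 0.05. The median over the 9 was 0.74, beside 0.02 over all genes. In soleus 0 passed the limits by edgeR or DESeq2, with 3 at an unadjusted p under 0.05 against EDL and 2 against psoas. The values furthest from 0 were Hspg2 at 0.67 ± 0.28 against EDL (adjusted p = 0.272) and -0.86 ± 0.30 against psoas (0.247), Lama4 at 0.66 ± 0.30 against EDL (0.304) and Lama2, the laminin alpha2 chain of the fibre's own basement membrane, at -0.66 ± 0.26 against psoas (0.312).

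Among 9 cytoskeletal anchors at the costamere, the rib that ties the outer myofibrils to the membrane, edgeR called 0 in psoas against EDL, beside 4.93% of all genes. At an unadjusted p under 0.05 there was 1 of the 9, beside 5679 of all 17069 genes tested. DESeq2 called 1, beside 9.29% of all genes. That gene was Krt19, a keratin at 2.81 ± 0.69 (adjusted p = 0.0142), which cells of the serous lining also express. Des (desmin) stood at 0.56 ± 0.27 (0.156). In soleus 0 passed by edgeR or DESeq2. At an unadjusted p under 0.05 there were 0 against EDL and 1 against psoas, beside 2584 and 2163 of all 17069 genes tested. The furthest from 0 in soleus were Krt19 at 0.93 ± 0.79 against EDL (0.649) and -1.88 ± 0.81 against psoas (0.352) and Krt8 at 0.57 ± 0.71 (0.777) and 0.67 ± 0.70 (0.702).

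**Figure D4:**
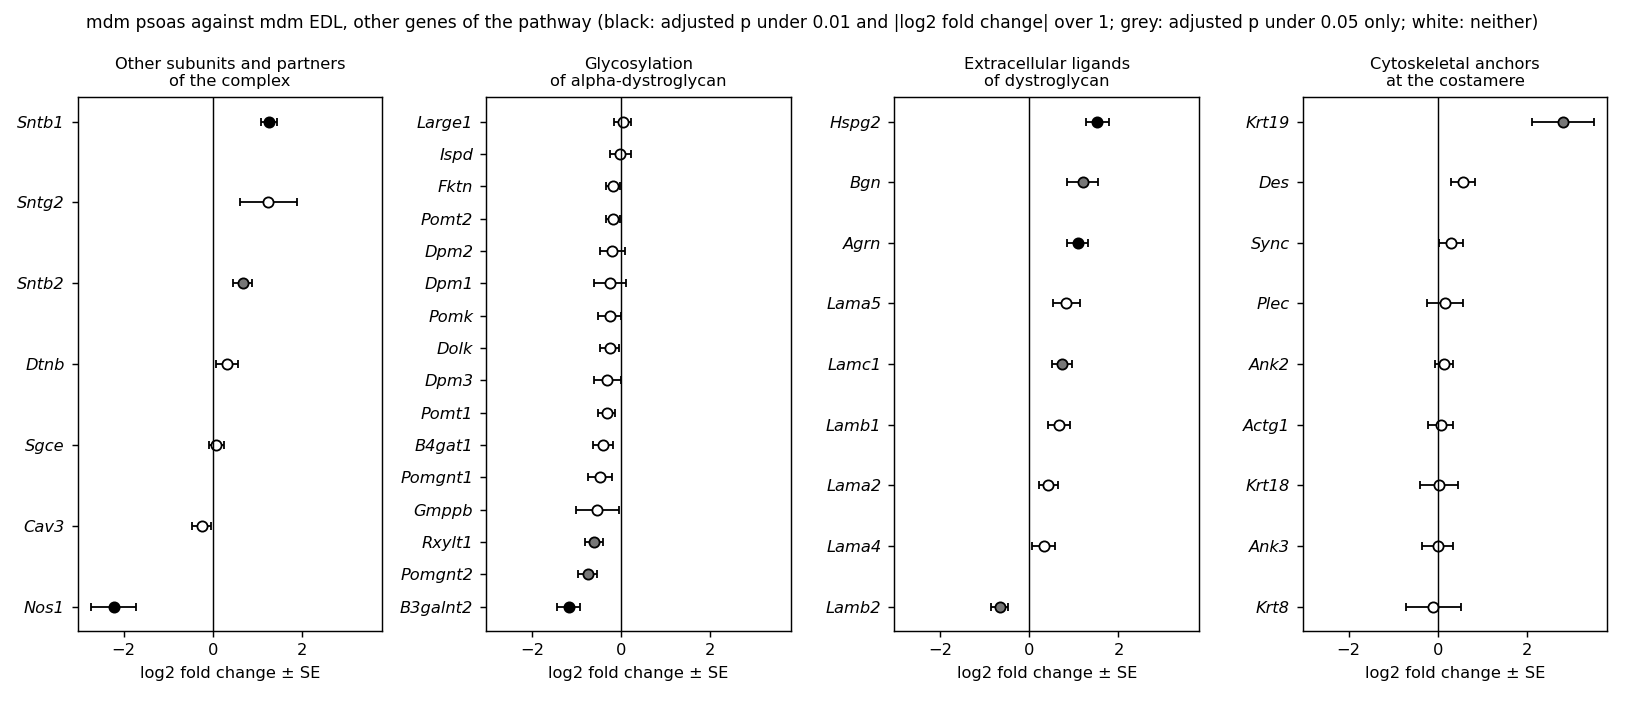
Log2 fold changes (x axis, with bars of 1 SE) of the other genes of the pathway (y axis, ordered by value) between mdm psoas and mdm EDL, with black points past both limits, grey points at an adjusted p under 0.05 only and white points at neither. Hspg2, Agrn and Sntb1 lie to the right in black, and Nos1 and B3galnt2 to the left.

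Markers of other cell types also differed between psoas and EDL, where 4.93% of all genes passed the limits and 5679 of 17069 had an unadjusted p under 0.05. The 4 mesothelial markers, Msln, Upk3b, Wt1 and Lrrn4, were all higher in psoas past the limits, with a summed normalized count of 194 to 942 against 28.4 to 99.2 in EDL and 42.1 to 116 in soleus. The sum of 3 Schwann cell markers was 378 to 1520 in psoas, 160 to 422 in EDL and 296 to 607 in soleus, and by edgeR 0 of them passed the limits between psoas and EDL, with 2 higher at an adjusted p under 0.05 and 3 at an unadjusted p under 0.05. Of 5 smooth muscle and pericyte markers Acta2 passed, at 1.42 ± 0.27 (0.00437), while Rgs5, a pericyte marker, stood at -0.81 ± 0.20 (0.0146), with sums of 6932 to 14922 in psoas and 7529 to 13218 in EDL. Endothelial, fibroblast, macrophage and adipocyte lists had 0 genes past the limits by edgeR between these muscles, with 1, 1, 0 and 2 at an unadjusted p under 0.05, and their sums overlapped. Adipocyte sums were 34205 to 62530 in soleus, above 3603 to 18984 in EDL and 10296 to 22977 in psoas, and Adipoq and Cfd passed between soleus and EDL. No marker of any list was at 0 in all libraries of a muscle. The part of these cells in the differences of Dag1, Utrn and the ligand genes was not tested.

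Likeness between genes was measured as the root mean square difference of log2 CPM across the 13 libraries after centring each gene on its mean, so that 0 means parallel profiles. It is a description, and the 13 points share their libraries. Among the 8 genes, Sgcb and Sgcd were the most alike, at 0.22, and Utrn and Sgca the least, at 1.24. Utrn lay nearer to Dag1 (0.45) than to Dmd (0.88), and Dtna lay nearer to Sgcb (0.29), Sgcd (0.34) and Sgca (0.36) than to Utrn (0.97). A typical gene lay 0.64 from Sgcb, 0.81 from Utrn and 0.92 from Sgca, these being the medians over all genes tested. Of all genes, 2.64% lay nearer to Sgcb than Sgcd did. The measure is not scaled to the spread of a gene, and Sgcb had the smallest SD of the 8, at 0.37.

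Outside the complex, the 3 nearest genes to each member were taken whatever they encode. Those of Sgca were Got2, Art1 and Fxyd1, at 0.18 to 0.21. Those of Utrn were Bicd2, at 0.14, Map4k4 and Nisch, and those of Dag1 were Rgp1, at 0.18, Prep and Fbxl18. Sgcb had the nearest neighbour of the 8, Det1 at 0.09, with Arl8b and Taf12 after it. Sgcd was followed by Cdkl2, at 0.14, Bves and Usp47, Dtna by Lbx1, at 0.15, Pmpca and Trappc1, and Dmd by Akap9, at 0.20, Rev1 and Fermt2. Sspn had no gene closer than Zmat5 at 0.34, with Arf5 and AI837181 next.

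Promoter sequence was read for the genes that passed the limits, from RefSeq's table on GRCm38.p6, which held windows for 7 of the 8 genes, all but Dtna, and 10 windows in all. Of these, 3 end at the annotated start of the gene, those of Sgca and the first of Dag1 and of Dmd, and 7 belong to starts inside the annotated gene. The 250 bases before the gene start are shown 5′ to 3′ on the strand of the gene for Sgca and Dag1, which passed the limits in opposite directions. Capitals mark each match to CANNTG, the E-box read by muscle transcription factors such as MyoD, on either strand, which reads the same on both. The Sgca window is chr11:94976328-94976577 and the first Dag1 window chr9:108263959-108264208, both on the minus strand and free of annotated exons.
Sgca: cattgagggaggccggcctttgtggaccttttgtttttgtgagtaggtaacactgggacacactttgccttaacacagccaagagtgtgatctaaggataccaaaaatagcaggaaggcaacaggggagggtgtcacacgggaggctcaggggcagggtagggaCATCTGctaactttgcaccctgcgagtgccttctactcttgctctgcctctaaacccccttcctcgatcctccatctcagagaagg
Dag1: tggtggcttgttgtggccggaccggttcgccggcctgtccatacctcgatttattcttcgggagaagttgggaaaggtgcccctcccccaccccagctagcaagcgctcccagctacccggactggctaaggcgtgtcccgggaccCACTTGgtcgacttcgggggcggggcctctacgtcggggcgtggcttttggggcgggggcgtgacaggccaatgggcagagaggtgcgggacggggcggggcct

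The windows differed in base composition. The Dag1 window had a GC content of 67.6% and an observed to expected CpG ratio of 0.749, above the value of 0.6 often used to mark CpG islands, as had 34% of 32851 such windows of all genes. The Sgca window had 52.8% GC and a CpG ratio of 0.23, and the medians over all windows were 52.4% and 0.373. Sgca held 1 E-box and Dag1 held 1. CANNTG occurred in 66.2% of all windows and in 7 of the 10 windows of these genes, where the Dag1 windows overlap and each count the same match. The form CAGCTG was found in 13% of all windows. CTA and TAG set 4 bases apart, a form of the core of MEF2 sites, was found in 3.2%. Both occurred in 0 of the 10, and other forms of the MEF2 core were not searched.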

How the data were processed

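Total RNA from whole mdm muscle was sequenced as stranded 75 bp read pairs. Per the submitters' notes and methods, reads of some libraries were trimmed (Trimmomatic 0.32), aligned to GRCm38.p4 (TopHat2 2.1.1) and counted per gene, and the authors deposited these raw counts for 17924 genes that passed a filter on low counts. The normalized signal values they deposited are the counts divided by a size factor per library, 0.502 to 2.42. The rule for counting overlaps and strand is not given in the sources used here.

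The raw counts were tested with edgeR 4.0.16 in R 4.3.3, by its quasi-likelihood test with TMM scaling, muscle as the only term, all 13 libraries in 1 fit and Benjamini-Hochberg adjustment over 17069 genes. The ± after a log2 fold change is its SE from this fit. Alternatives were DESeq2 1.42.0, limma 3.58.1 on log2(normalized count + 1), other size factors and filters, blocks, single libraries left out and values within codes. The scripts were tested on simulated counts before use. Exon lengths, positions and symbols (17833 of 17924 genes) came from GENCODE release 21 of the mouse, on GRCm38.

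Libraries carry a code (T1 or T3 to T6) whose meaning the labels do not give, and the study used several sequencing runs that the labels do not assign to libraries, so runs could not be fitted. Replicate numbers come from the titles. Deviations from the muscle means of same-numbered EDL and psoas libraries correlated over all genes at 0.289 to 0.407 in 5 of 5 pairs, so these numbers were taken as pairs. Pair 1, which joins animals of 38 and 29 days, had the highest of these, 0.407, and pairs 2 to 5 also share a code. The correlations therefore do not show that paired libraries came from the same animal. With soleus the same-numbered correlations ran from -0.302 to 0.421, and those numbers were not taken as pairs. Named pathway genes are those past the limits in any comparison and the 2 with the largest change in each, and Rxylt1, Lamc1, Lamb2 and Rgs5 were chosen after their values were seen. Some genes of the pathway and marker lists are not reported here, and the counts, medians and sums of those lists leave them out. The members and lists were chosen with earlier results of these data known.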

Additional observations from a re-analysis of the deposited data

How the results depend on the processing

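For psoas against EDL the count of members past the limits, 2, became 1 with the label code as a block, 0 without the EDL and psoas libraries numbered 1 (chosen after seeing the data) and 6 at an adjusted p under 0.05 with no fold limit, and ran from 1 to 3 when single libraries were left out. With the replicate block on EDL and psoas it was 3, with Utrn at an adjusted p of 0.00822, and on all 13 libraries 2. The pairing changed no other call of a member. For soleus against EDL, 0 became 1 in DESeq2 and 1 at 0.05. For the 3 muscles, 1 became 2 with the stricter filter (a normalized count of 50), 2 in limma, 4 in DESeq2, 3 at 0.05 and 0 without the libraries numbered 1, and ran from 0 to 2 over single libraries. Counts over all genes in psoas against EDL were 841 by edgeR, 1586 by DESeq2, 557 on these muscles alone, 1267 with their pairs as a block and 317 without EDL replicate 3. They were 167 by edgeR, 633 by DESeq2 and 19 without soleus replicate 1 in soleus against EDL, 13, 171 and 3 in soleus against psoas, and 721, 2211 and 343 over the 3 muscles. With the label code as a block they were 86 and 6 in the comparisons of soleus with EDL and psoas. The cause was not tested.

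Some differences near 0 changed sign. Between soleus and psoas, Utrn (0.075) went to -0.040 with the label code as a block, to -0.139 with the replicate block and from -0.308 to 0.341 over single libraries. Sspn went to 0.184 with the replicate block and ran from -0.373 to 0.139, and Dmd from -0.363 to 0.054. Sgcd between soleus and EDL went to 0.018 with the replicate block. Rescaling moved the median of all genes by less than 0.1. The 3 soleus libraries, 1 with 9114176 counts, limit what their comparisons can show.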
